A study of Mus musculus with 6 samples.

Results

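The R-spondins and the proteins through which they act were followed as 9 genes across the uterus of control and diethylstilbestrol (DES)-exposed mice. The members were taken by name, as 4 ligands (Rspo1, Rspo2, Rspo3 and Rspo4), 3 receptors (Lgr4, Lgr5 and Lgr6) and 2 membrane ubiquitin ligases (Rnf43 and Znrf3). They were 9 of 24077 genes counted in the single cells and 9 of 30828 genes counted in the tissue sections. R-spondins are secreted proteins that bind LGR receptors together with the ligases RNF43 and ZNRF3. Without an R-spondin these ligases mark Frizzled, the Wnt receptor, for removal from the cell surface, and an R-spondin takes the ligases away, so that more Wnt receptor remains. Lgr5, Rnf43 and Znrf3 are also known target genes of Wnt/beta-catenin signaling, and LGR5 is known as a stem cell marker in the intestine and as a receptor of gland epithelium in the uterus.

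CD-1 mice received DES, a synthetic estrogen, at 1 mg/kg/day or corn oil vehicle (CO) under the skin on days 1 to 5 after birth, and uteri were taken at 12 months of age, CO mice in estrus because DES mice remain in estrus. Uterine horns were dissociated with trypsin for single-cell RNA-seq into 1 CO library that pooled 2 mice and 1 DES library that pooled 4 mice. Spatial transcriptomics was carried out on 2 CO sections (CO A and CO B) and 2 DES sections (DES A and DES B) with 1 mouse each, the DES sections being chosen to contain adenocarcinoma. The CO library held 32387 cells, of which 12253 carried a cell type from the authors, and the DES library held 16312 cells, of which 9701 did. The sections held 1357 to 1834 spots and 9117099 to 12506177 unique molecular identifiers (UMIs). In total, 180 cell barcodes occurred in both libraries, and CO B carried a tissue fold. The study describes DES B as limited for telling clusters apart, and it based most of its section analyses on 1 section per group. A DES stromal group was not analysed in single cells because only 1 DES cell carried that label.

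The cell type labels were checked against marker lists that did not include the members. Myocytes expressed Myh11 at 2419 counts per 1000000 UMIs (CPM). DES basal cells expressed Krt14 at 3314 CPM, but they were selected in part by their Krt14 UMIs, as defined below. Their Krt14 level therefore describes that selection and checks no label. Mesothelial cells expressed Upk3b, a surface protein of this lining, at 1005 CPM in CO and 900.0 CPM in DES. They also held the matrix gene Dcn at 17675 CPM in CO and 18958 CPM in DES, against 8859 CPM in CO stromal cells, and Lum, another matrix gene, at 3330 CPM in CO against 1065 CPM in CO stromal cells. Summed stromal markers (21126 CPM) therefore exceeded summed mesothelial markers (2667 CPM) in CO mesothelial cells, and they also exceeded the sum in CO stromal cells (12687 CPM). Summed mesothelial markers were in turn higher in CO mesothelial than in CO stromal cells (163 CPM). The stromal sums thus go against the mesothelial label and the mesothelial sums go with it, and the name is used here as the authors' label. The other stromal genes separated both groups. Dpt, Vcan and Pdgfra stood at 1.88, 4.77 and 3.13 CPM in CO mesothelial cells against 265, 207 and 265 CPM in CO stromal cells, and Col6a3 at 111 against 2025 CPM. The cells labelled lymphocytes also went against their name in part, because their summed myeloid markers (3431 CPM in CO) exceeded their summed lymphocyte markers (865 CPM in CO). Their lymphocyte sum was above that of the CO cells labelled myeloid (26.0 CPM). They are called by their label here only as a group of the authors' table.

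Promoter windows are shown for Lgr4, Lgr6 and Rspo1, the members with a matched window that the results by cell type and region describe most. RefSeq windows on GRCm38.p6 were matched for 5 of the 9 members, and Rspo2, Rspo3, Lgr5 and Znrf3 were not matched. Each run gives the 250 bases before the gene's start, 5′ to 3′ on the gene's strand, and capitals mark TGACC, the reverse complement of the estrogen response element half-site GGTCA.
Lgr4, chr2:109917397-109917646, plus strand: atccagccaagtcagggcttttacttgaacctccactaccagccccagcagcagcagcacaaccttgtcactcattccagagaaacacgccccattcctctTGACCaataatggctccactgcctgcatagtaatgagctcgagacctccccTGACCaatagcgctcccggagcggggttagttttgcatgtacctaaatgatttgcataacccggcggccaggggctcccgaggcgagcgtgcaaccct
Lgr6, chr1:135105277-135105526, minus strand: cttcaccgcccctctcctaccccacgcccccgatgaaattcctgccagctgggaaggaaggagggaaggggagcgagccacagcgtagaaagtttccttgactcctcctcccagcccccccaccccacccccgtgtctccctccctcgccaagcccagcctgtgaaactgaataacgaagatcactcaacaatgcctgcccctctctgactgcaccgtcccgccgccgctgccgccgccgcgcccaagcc
Rspo1, chr4:124986180-124986429, plus strand: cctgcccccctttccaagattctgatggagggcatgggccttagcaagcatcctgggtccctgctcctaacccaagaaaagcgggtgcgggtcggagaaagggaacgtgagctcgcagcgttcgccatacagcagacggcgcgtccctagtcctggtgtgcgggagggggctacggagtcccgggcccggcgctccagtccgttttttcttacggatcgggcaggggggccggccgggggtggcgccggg
The half-site, searched on both strands as GGTCA or TGACC, occurred 2 times in the Lgr4 window and in no window of another matched member, and it occurs in 35.2% of 32851 promoter windows of the same length. The T-cell factor letters CTTTGA or TCAAAG occurred in 0 of the 6 windows of the matched members and in 13.8% of all windows. These matches describe letters in a window and do not show a bound site.

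Rspo1 was highest in the cells labelled mesothelial, the name of the lining on the outer surface of the uterus. The gene lies on chromosome 4 from 124986430 to 125009099 (GRCm38, plus strand). Its level, as UMIs of the gene per 1000000 UMIs summed over the cells of a group, was 597 CPM in mesothelial cells of the CO library (95% Poisson interval 592 to 603) and 715 CPM in those of the DES library (708 to 721). These intervals, like all others on single cells, cover counting error only, since each condition was 1 library and no test between the libraries was possible. After each cell was thinned to 3000 UMIs, 78.5% of CO and 87.0% of DES mesothelial cells retained a Rspo1 UMI, and 94.4% and 98.6% held 1 before thinning. The DES level was 1.196-fold the CO level (interval 1.18 to 1.21). CO myocytes held Rspo1 at 96.7 CPM (79.1 to 117; 31.0% of thinned cells) and CO stromal cells at 49.8 CPM (45.9 to 54.1; 14.4%).

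In epithelial cells Rspo1 was low. CO epithelial cells held 9.40 CPM and DES non-basal epithelial cells 4.59 CPM, a ratio of 0.488 (0.440 to 0.541). The share of thinned cells with a UMI was 2.46% in CO and 1.95% in DES epithelium, below the 4.04% of CO endothelial cells. That endothelial share rests on 38 UMIs before thinning, and only 5 DES cells carried the label. CO endothelial cells also held summed mesothelial markers of 77.2 CPM, so they set no firm background. Whether epithelial cells express Rspo1 was not tested. For each 100 UMIs of the mesothelial transcript Upk3b there were 59.4 UMIs of Rspo1 in CO mesothelial cells, 47.6 in CO epithelial cells, 83.5 in CO myocytes and 186 in CO stromal cells. In DES there were 79.4 in mesothelial and 38.4 in non-basal epithelial cells. The proportion was thus lower in epithelium than in mesothelial cells of either library and higher in stroma. The 110 CPM of the CO cells labelled myeloid rested on 68 UMIs in 67 cells, in which mesothelial markers summed to 587 CPM.

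Rspo3 shared the mesothelium with Rspo1 and was as high in muscle. It lies on chromosome 10 from 29452416 to 29535867 (minus strand). CO myocytes held 122 CPM (102 to 145; 134 UMIs in 85 cells), DES mesothelial cells 112 CPM (109 to 114) and CO mesothelial cells 71.4 CPM (69.6 to 73.3). The interval of the myocytes overlapped that of DES and not that of CO mesothelial cells. Thinned shares were 31.0%, 25.1% and 17.6% in these 3 groups. DES mesothelium exceeded CO mesothelium 1.56-fold (1.51 to 1.62). CO stromal cells held 4.77 CPM (3.604 to 6.20), with a thinned share of 1.305%.

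Epithelial Rspo3 was low, at 1.56 CPM in CO (123 UMIs) and 2.40 CPM in DES non-basal cells (399 UMIs). The thinned shares of 0.429% and 0.615% lay below those of the cells labelled lymphocytes (0.645% and 0.939%). The latter rest on 6 and 3 UMIs of Rspo3 before thinning, so they set no firm background. Rspo3 was uneven within the epithelium of both libraries. The 15 CO clusters ran from 0.494 to 5.09 CPM, and the intervals of 2 lay above that of the CO lumen (1.51 CPM). In DES the intervals of 7 of the 16 clusters lay above it. The 16 DES clusters ran from 0 UMIs in cluster 14 to 7.45 CPM in cluster 15 (4.61 to 11.4; 21 UMIs), with 5.53 CPM in cluster 2, 5.25 CPM in cluster 7 and 5.24 CPM in cluster 11. For each 100 UMIs of Rspo1 there were 15.6 UMIs of Rspo3 in DES mesothelial cells and 52.3 in all DES non-basal epithelial cells (399 over 763 UMIs). In CO there were 16.6 in epithelial cells (123 over 741 UMIs) and 51.9 in epithelial cluster 5 (28 over 54 UMIs). By DES cluster there were 8.82 in cluster 0, 105 in cluster 2, 117 in cluster 7 and 233 in cluster 15. These proportions have no interval, and they rest on 9 UMIs of Rspo3 over 102 of Rspo1 in cluster 0, 82 over 78 in cluster 2, 48 over 41 in cluster 7 and 21 over 9 in cluster 15. The clusters were formed by the authors on these same counts, so levels by cluster are a description here and carry no test.

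Rspo4 was detected at a low level in gland cells of the CO library and not in the DES library. It lies on chromosome 2 from 151842927 to 151874668 (plus strand). Of 66 Rspo4 UMIs in annotated CO cells, 60 came from epithelium, in 49 cells, and all 60 were in clusters 3, 8 and 14, which the study calls developing gland. It further names cluster 14, which has only 28 cells, the glandular progenitors. Clusters 3, 8 and 14 held 38, 16 and 6 UMIs, or 7.78, 7.90 and 6.61 CPM, and together 7.67 CPM (5.86 to 9.88). The 10 luminal clusters, mature gland cluster 13 and cluster 12 held 0 UMIs, which in the lumen allows a level of up to 0.0439 CPM at 3 UMIs. All 16312 DES cells held 0 UMIs. Against a floor of 3 UMIs in the DES non-basal epithelial cells (0.0180 CPM), CO epithelium was at least 42.2-fold higher. In sections the gene was nearly absent, as CO A and CO B held 1 UMI each, DES A held 7 and DES B 0.

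Rspo2, on chromosome 15 from 43020794 to 43170826 (minus strand), was almost not detected. It gave 12 UMIs in annotated CO cells and 13 in annotated DES cells. Of these, 10 and 12 were in mesothelial cells, at 0.120 and 0.186 CPM, and the sections held 0 UMIs.

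**Figure D1:**
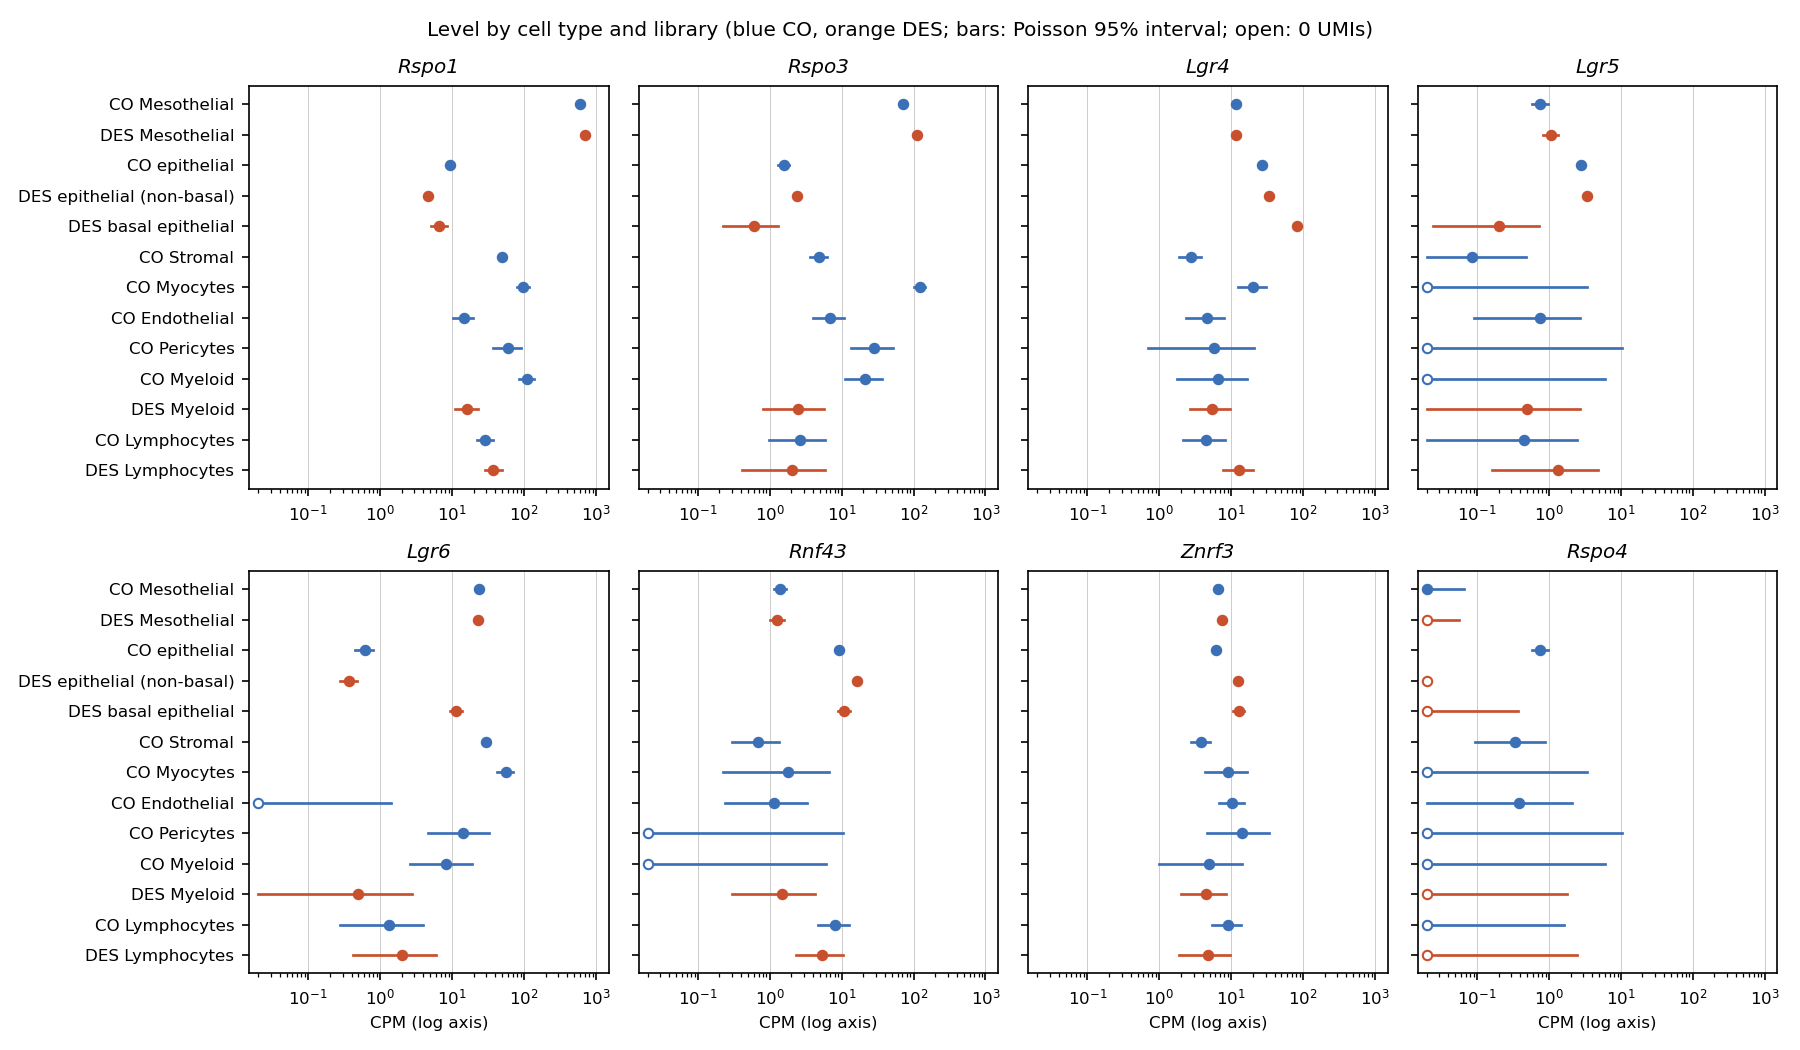
Levels of 8 members, all but Rspo2, in cell types of the CO and DES libraries, in CPM on a log axis with 95% Poisson intervals; levels below 0.02 CPM are drawn at 0.02, and open points mark groups with 0 UMIs. The CO Ctla2a cells, the DES Lyz2-high myeloid cells and groups under 50 cells are not drawn. Rspo1 peaks in mesothelial cells at 597 CPM in CO and 715 CPM in DES, while Lgr4 peaks in DES basal cells at 83.0 CPM.

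Lgr4 was highest in basal cells, followed by the other epithelial cells, and CO myocytes were close to CO epithelium. It lies on chromosome 2 from 109917647 to 110014257 (plus strand). Basal cells, which form the lower layer of a stratified epithelium, were DES epithelial cells in which Krt14 and Trp63 each exceeded 1 UMI, and CO epithelium held 0 such cells. DES basal cells held Lgr4 at 83.0 CPM (77.4 to 88.9; 24.4% of thinned cells), DES non-basal epithelial cells at 33.2 CPM (32.4 to 34.1; 9.22%) and CO epithelial cells at 27.2 CPM (26.1 to 28.4; 8.70%). The 3 intervals did not overlap. CO myocytes held 20.1 CPM (12.6 to 30.4; 9.52% of thinned cells) on 22 UMIs, and their interval overlapped that of CO epithelial cells. Basal cells exceeded the other DES epithelial cells 2.50-fold (2.32 to 2.69), whereas DES exceeded CO non-basal epithelium 1.22-fold (1.16 to 1.28). Mesothelial cells held 11.5 CPM in CO and 11.7 CPM in DES (ratio 1.02, 0.925 to 1.12), and CO stromal cells held 2.73 CPM with a thinned share of 0.844%. By epithelial cluster, Lgr4 ran from 17.8 to 40.6 CPM over 15 CO clusters and from 15.7 to 47.5 CPM over 16 DES clusters, so that the highest cluster was 2.29-fold the lowest in CO and 3.03-fold in DES.

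Lgr5 reached its highest levels in CO clusters 12 and 14 and was more evenly spread over the DES clusters. It lies on chromosome 10 from 115450311 to 115587780 (minus strand). The study used Lgr5 among its markers for CO cluster 12, which it names epithelial stem cells, so the level there describes that choice. Cluster 12 held 39.6 CPM (30.9 to 50.04; 70 UMIs), and the gland clusters held 29.8 CPM (cluster 14), 12.7 CPM (cluster 3), 10.1 CPM (cluster 13) and 9.88 CPM (cluster 8). Cluster 14 has 28 cells, fewer than the 50 asked of other groups, and the study names it glandular progenitors. Of the 10 luminal clusters, cluster 4, which the study calls luminal progenitors, held 3.21 CPM (2.06 to 4.78), and the other 9 held 0.705 CPM or less. The lumen as a whole held 0.498 CPM (0.345 to 0.695), and the intervals of 6 of the 15 CO clusters lay above this one. The 16 DES clusters ran from 0.722 CPM (cluster 12) to 9.74 CPM (cluster 7), with a median of 3.22 CPM, and the intervals of 12 of them lay above that of the CO lumen. None of the DES clusters reached the level of CO clusters 12 or 14, whose intervals began at 30.9 and 19.6 CPM.

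Over all non-basal epithelial cells, Lgr5 was nearly equal between the libraries, at 3.34 CPM in DES and 2.82 CPM in CO (ratio 1.19, 1.01 to 1.39). The order turned when each cell was given equal weight (ratio 0.726), so no direction can be given. Thinned shares were 0.890% in DES and 1.05% in CO, against 0.291% and 0.223% in mesothelial cells. DES basal cells held 2 Lgr5 UMIs, 0.202 CPM, which was 0.0605-fold the level of the other DES epithelial cells (0.00731 to 0.220).

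Lgr6 was highest in muscle, stroma and mesothelium and low in the simple epithelium. It lies on chromosome 1 from 134983301 to 135105276 (minus strand). CO myocytes held 55.6 CPM (42.5 to 71.5), CO stromal cells 29.6 CPM (26.5 to 32.8), CO mesothelial cells 23.9 CPM (22.9 to 25.02) and DES mesothelial cells 23.1 CPM (21.9 to 24.3). The levels in both mesothelial groups had overlapping intervals (ratio 0.965, 0.901 to 1.03). Non-basal epithelial cells held 0.609 CPM in CO and 0.367 CPM in DES. Their thinned shares of 0.234% and 0.0848% lay below the 0.645% and 0.469% of the cells labelled lymphocytes. Those lymphocyte shares rest on 3 UMIs of Lgr6 in each library before thinning, so they set no firm background. DES basal cells stood apart at 11.3 CPM (9.33 to 13.6; 4.14% of thinned cells), 30.9-fold the other DES epithelial cells (22.4 to 42.9). Of the 3 receptors, Lgr4 and Lgr6 were thus higher and Lgr5 lower in basal than in non-basal DES epithelium.

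Both ligases were higher in DES than in CO non-basal epithelium. Rnf43 lies on chromosome 11 from 87662722 to 87735539 (plus strand) and Znrf3 on the same chromosome from 5276324 to 5444847 (minus strand). Rnf43 stood at 16.5 CPM in DES (15.9 to 17.1; 5.30% of thinned cells) and 9.12 CPM in CO non-basal epithelial cells (8.47 to 9.82; 2.34%), a ratio of 1.81 (1.66 to 1.96). Znrf3 stood at 12.5 CPM in DES (12.0 to 13.1; 3.24%) and 6.18 CPM in CO (5.64 to 6.75; 2.26%), a ratio of 2.02 (1.83 to 2.24). The thinned shares of cells labelled lymphocytes were 2.90% in CO and 2.82% in DES for Rnf43 and 1.94% and 0.939% for Znrf3. They rest on 18 and 8 UMIs of Rnf43 and 20 and 7 UMIs of Znrf3 before thinning. These cells also held summed epithelial markers of 1144 CPM in CO and 481 CPM in DES. Their shares therefore cannot set a background for the ligases, and no conclusion on expression is drawn from them. Outside the epithelium the ligases differed in spread. CO endothelial cells held Rnf43 at 1.14 CPM and Znrf3 at 10.3 CPM (6.77 to 14.9), the latter above the CO epithelial level. Rnf43 was at 1.38 and 1.27 CPM in CO and DES mesothelial cells and at 0.682 CPM in CO stromal cells, while Znrf3 was at 6.57 and 7.49 CPM in mesothelial cells (ratio 1.14, 1.01 to 1.29) and at 3.83 CPM in stromal cells.

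Within CO epithelium both ligases were high in clusters 12 and 13 and differed in the developing gland. Rnf43 was highest in cluster 12 (33.9 CPM, 25.9 to 43.7) and in mature gland cluster 13 (33.7 CPM, 22.7 to 48.1), and ran from 4.91 to 11.5 CPM in the other 13. Znrf3 was high in cluster 12 (23.8 CPM) and in all 4 gland clusters, at 27.5, 19.4, 19.1 and 13.3 CPM in clusters 14, 3, 13 and 8, against 4.11 CPM in the lumen as a whole. The 3 developing gland clusters together held Znrf3 at 18.8 CPM (15.9 to 22.1) and Rnf43 at 6.14 CPM (4.53 to 8.14). In DES, Rnf43 ran from 10.4 to 28.4 CPM and Znrf3 from 7.59 to 22.4 CPM over 16 clusters, and cluster 8 was the highest for both. The intervals of all 16 DES clusters lay above that of the CO lumen for Znrf3, and those of 14 for Rnf43. The ligases thus varied 2.73-fold and 2.95-fold over DES clusters against 6.91-fold and 9.55-fold over CO clusters. The 9.55-fold spread of Znrf3 takes its top level from the 28 cells of cluster 14, below the size asked of other groups.

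**Figure D2:**
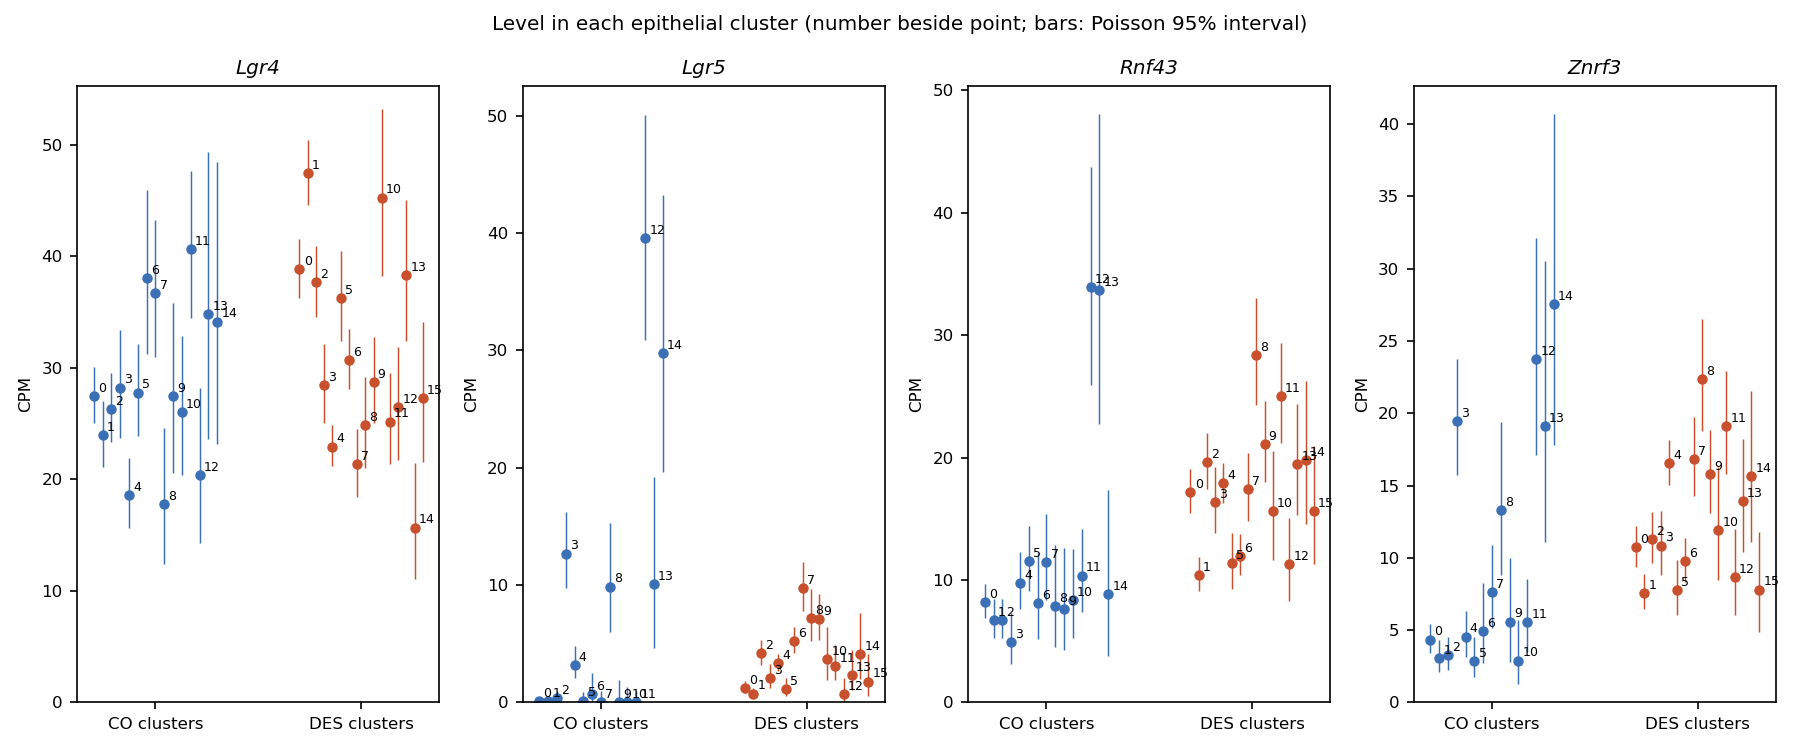
Levels of Lgr4, Lgr5, Rnf43 and Znrf3 in each epithelial cluster of the CO library (blue) and the DES library (orange), in CPM with 95% Poisson intervals and the cluster number beside each point. In CO, Lgr5 rises to 39.6 CPM in cluster 12 and stays at 0.705 CPM or less in 9 luminal clusters, whereas in DES it runs from 0.722 to 9.74 CPM.

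Counted by a fold of 2 or more among genes at 1 CPM or more in either library, 6 of the 9 members could be compared in non-basal epithelium. Of these, 1 was higher in DES (Znrf3) and 1 lower (Rspo1, at a low level). Of all 12747 genes, 13.3% were higher and 9.77% lower. Neither member reached 2-fold when each cell was given equal weight (ratios of 1.63 and 0.654). In mesothelial cells 7 members could be compared and 0 passed in either direction, where 4.33% of genes were higher and 4.36% lower. Between basal and non-basal DES epithelium, 7 could be compared, 2 were higher in basal cells (Lgr4 and Lgr6) and 2 lower (Lgr5 and Rspo3), against a background of 11.9% higher and 11% lower. Both lower members were near the floor in basal cells, with 2 UMIs of Lgr5 and 6 of Rspo3. These counts rest on 1 library a condition and have no replicate check.

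The wider Wnt pathway in the same cells was described through 57 other genes. In non-basal epithelium 41 reached 1 CPM, 14 were 2-fold or more higher in DES and 4 lower, where 13.3% of all genes compared were higher and 9.77% lower, with a median log2 ratio of 0.46 against 0.12 over all genes. Of 9 known Wnt target genes at 1 CPM, 6 were higher, among them Axin2, a feedback inhibitor of the pathway, at 9.42 CPM in DES against 2.88 CPM in CO (3.27-fold, 2.84 to 3.77), and Ccnd1, a cyclin, was lower at 79.7 against 169 CPM. Wnt7a, a ligand of uterine epithelium, stood at 62.2 against 8.997 CPM (6.91-fold, 6.40 to 7.47), and Porcn, the enzyme that attaches the lipid that Wnt proteins need for secretion, at 134 against 20.01 CPM. Of the Frizzled receptors, Fzd10 was at 49.3 against 8.81 CPM and Fzd5 at 5.41 against 15.1 CPM. In mesothelial cells 42 of the 57 reached 1 CPM, 4 were higher and 1 lower, where 4.33% of all genes were higher and 4.36% lower, with a median of 0.04 against −0.0046 over all genes. In basal against non-basal DES epithelium 44 reached it, 11 were higher and 5 lower, where 11.9% of all genes were higher and 11% lower, with a median of 0.13 against −0.06 over all genes.

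In the sections, spots hold several cells, so UMIs were summed per section and tested with edgeR's quasi-likelihood test, with p-values adjusted over all genes by the Benjamini-Hochberg method. In such sums fewer cells of a type and less RNA per cell cannot be told apart. A fit without 1 section leaves 1 section in a group, so its adjusted p does not measure the spread of that group. An exact permutation test of 2 against 2 sections cannot go below a two-sided p of 0.333, so the calls lean on a spread shared across genes. The fitted differences are after scaling between sections by trimmed means of M-values (TMM), whereas the CPM are per library size alone. Leaving out the TMM factors, a choice made after seeing the data, moved the median gene toward DES by 0.21 on the log2 scale in whole sections, 0.26 in epithelium-rich and 0.22 in muscle-rich spots, and moved the muscle over epithelium contrasts by −0.12 in CO and −0.11 in DES. Among genes called between DES and CO in these 3 comparisons, the share higher in DES then went from 50.3% to 66.5%, from 60.8% to 77.8% and from 60.6% to 81.8%. It changed the call of no member, and Lgr4 was called at 1.70 in whole sections (adjusted p = 0.0191) and 1.48 in epithelium-rich spots (adjusted p = 0.0298). Whole-section muscle markers summed to 17822 and 19139 CPM in CO against 4481 and 5032 CPM in DES, and basal markers to 3.36 and 160 CPM in CO against 9526 and 5644 CPM in DES. Myeloid markers summed to 334 and 677 CPM in CO and 2060 and 1153 CPM in DES. The part of these cell types in the results below was not tested, apart from the sums within regions.

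Lgr4 was higher in both DES sections. CO A and CO B held 22.1 and 21.6 CPM, whereas DES A and DES B held 73.0 and 68.6 CPM. Both DES sections lay above both CO sections, and replicates of a group differed little. Lgr4 rose 2.80-fold (log2 change 1.49, SE 0.16, edgeR adjusted p = 0.0215) and was the 1 call among 6 members tested, where 2.67% of 14098 genes were called higher and 2.63% lower. The call was lost when DES A (log2 change 1.46, adjusted p = 0.170) or DES B (1.48, adjusted p = 0.184) was left out, which leaves 1 DES section that is assumed to vary like the others.

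Rspo3 and Rspo1 did not pass in whole sections, and their CO sections differed from each other more than their DES sections. Rspo3 stood at 15.5 and 63.0 CPM in CO A and CO B and at 5.48 and 7.89 CPM in DES A and DES B. The groups did not overlap, but the CO sections lay far apart, and the log2 difference of −2.74 (SE 0.71) had an adjusted p of 0.103. Without CO B, which holds the fold, it was −1.44, and without CO A −3.41. On all sections DESeq2 called the difference (adjusted p = 2.1e-04), where it called 11.9% of genes. Rspo1 stood at 29.3 and 55.7 CPM in CO and 27.9 and 20.6 CPM in DES (log2 difference −1.01, SE 0.34, edgeR adjusted p = 0.163). Its difference was −1.39 without CO A. Muscle marker sums moved in the same direction as both genes, as given above. Stromal marker sums did so too, at 2915 and 2931 CPM in CO and 1359 and 968 CPM in DES. Mesothelial marker sums did not fall, at 36.0 and 50.1 CPM in CO and 43.4 and 53.1 CPM in DES. Their part was not tested.

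Lgr6 and the ligases passed no test in whole sections. Lgr6 stood at 67.2 and 11.6 CPM in CO and 35.8 and 21.0 CPM in DES, so that both DES sections lay between the CO sections (log2 difference −0.71, SE 0.82, adjusted p = 0.658). Its direction turned without CO A (1.09), and the difference was −1.49 without CO B. Znrf3 stood at 5.12 and 6.89 CPM in CO and 10.9 and 9.82 CPM in DES, without overlap (0.58, SE 0.27, adjusted p = 0.270), and Rnf43 at 10.2, 10.1, 13.1 and 9.21 CPM (−0.08, SE 0.26, adjusted p = 0.888). The sign of Rnf43 turned without TMM factors (0.13), so no direction is given. Lgr5 was too low to test, with 0 UMIs in either CO section, 6 in DES A and 4 in DES B. Against a floor of 3 UMIs over both CO sections it was 4.13-fold higher in DES, a fold without an interval.

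**Figure D3:**
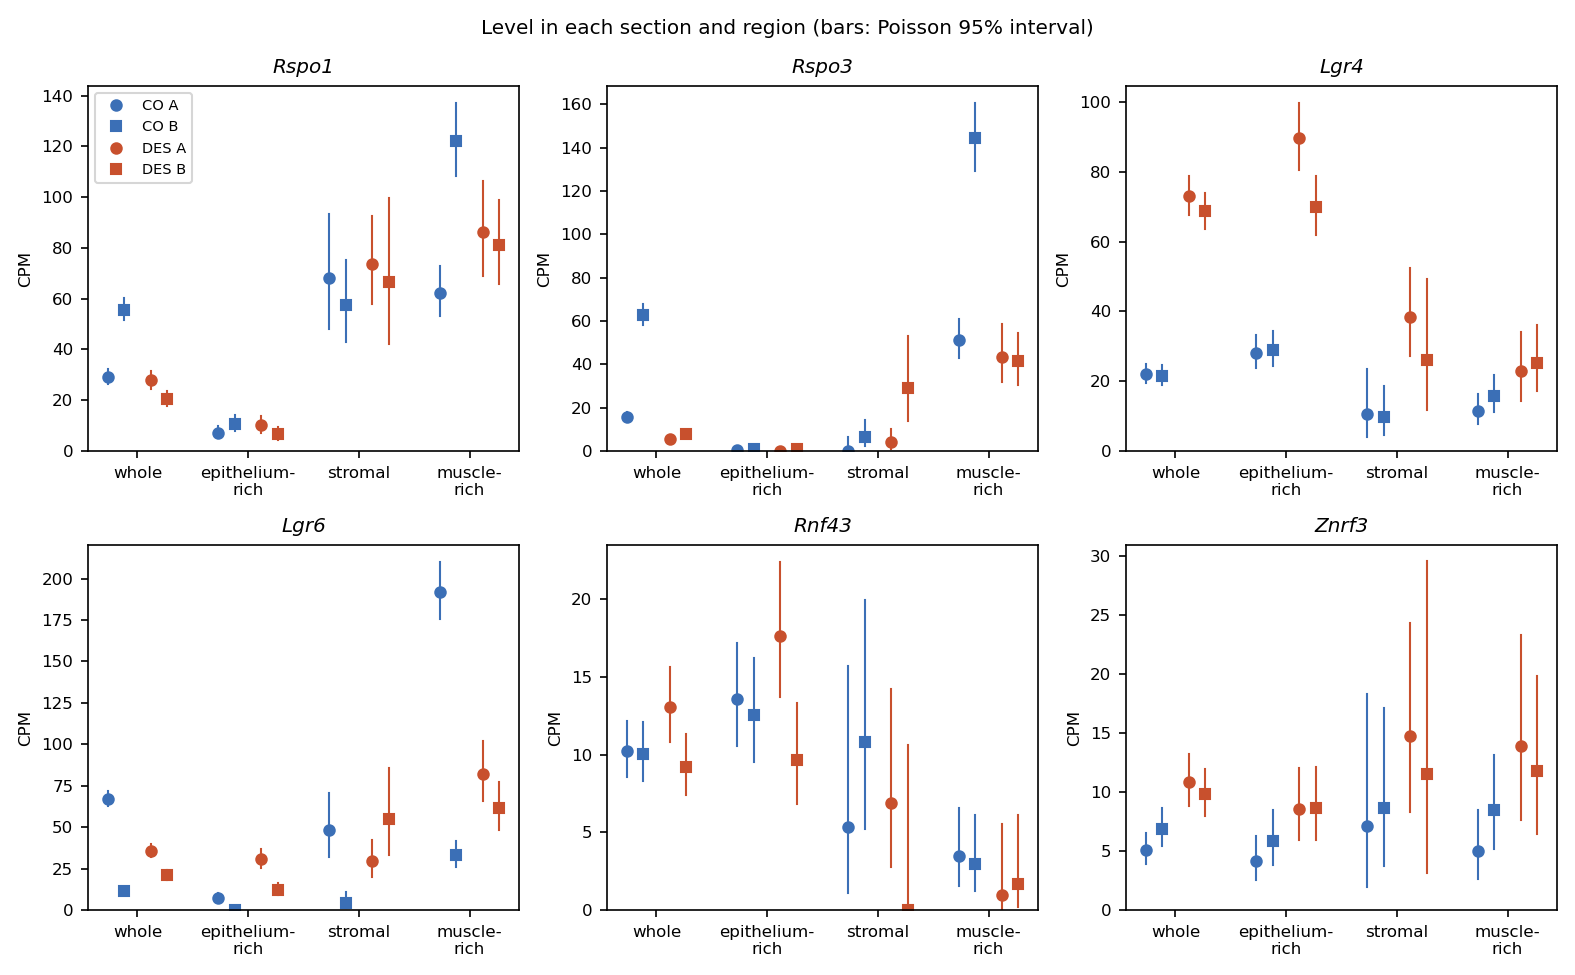
CPM of Rspo1, Rspo3, Lgr4, Lgr6, Rnf43 and Znrf3 in the 4 sections (blue CO, orange DES, circles A, squares B), as whole sections and in epithelium-rich, stromal and muscle-rich spots, with 95% Poisson intervals. Lgr4 lies at 22.1 and 21.6 CPM in the CO and at 73.0 and 68.6 CPM in the DES whole sections, while the CO sections of Lgr6 lie far apart at 67.2 and 11.6 CPM.

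To compare like tissue, the 25% of spots of each section with the highest epithelial over muscle marker score was summed as epithelium-rich, and the 25% at the other end as muscle-rich. Of the muscle-rich spots, 44 in DES A and 94 in DES B also belonged to the cluster that the study calls stroma, against 0 in CO A and CO B, so that 94 of the 132 stromal spots of DES B counted in both regions. Leaving out the shared spots, a choice made after seeing the data, changed the call of no member that was still tested. In epithelium-rich spots Lgr4 stood at 28.1 and 29.0 CPM in CO and 89.8 and 70.0 CPM in DES. It rose 2.32-fold (log2 change 1.22, SE 0.20, edgeR adjusted p = 0.0391), the 1 call among 5 members tested, against a background of 2.72% called higher and 1.75% lower. Basal markers in these spots summed to 4.72 and 144 CPM in CO and 9835 and 5192 CPM in DES, and their part in the Lgr4 result was not tested. The call was lost without DES A (1.07) or DES B (1.35), which each leave 1 DES section. It was also lost with the outer 15% of spots in place of 25% (1.15, adjusted p = 0.0641) and with the section letter as a replicate block. Lgr6 stood at 7.47 and 0.216 CPM in CO and 30.9 and 12.0 CPM in DES. It was higher in both DES sections without passing (2.16, SE 1.11, edgeR adjusted p = 0.301). The difference was 6.21 without CO A, which sets DES against the 1 UMI of CO B, and 1.22 without CO B.

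The remaining members did not pass in epithelium-rich spots. Znrf3 stood at 4.13 and 5.85 CPM in CO and 8.56 and 8.62 CPM in DES (0.53, SE 0.36, adjusted p = 0.433). Rnf43, the other ligase, stood at 13.6, 12.6, 17.6 and 9.66 CPM in CO A, CO B, DES A and DES B (−0.21, adjusted p = 0.763, and 0.064 without TMM factors), so no direction is given. Rspo1 stood at 7.28, 10.6, 10.1 and 6.53 CPM (−0.36, adjusted p = 0.606), and Rspo3 gave 2, 5, 0 and 4 UMIs. Thus the higher ligase levels of DES epithelial single cells were accompanied here by differences that could not be separated from the spread between sections.

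In muscle-rich spots 0 of 5 members tested were called by edgeR and 0 by DESeq2, where edgeR called 3.69% of genes and DESeq2 2.98%. At an unadjusted p under 0.05 there was 1 member, where 17.6% of genes passed. Rspo3 stood at 51.3 and 144 CPM in CO and 43.6 and 41.4 CPM in DES (log2 difference −1.42, SE 0.46, unadjusted p = 0.0136, adjusted p = 0.147). The difference was −1.99 without CO A and −0.50 without CO B, and each of these fits leaves 1 CO section. With no filter on low counts Rspo3 passed (−1.45, edgeR adjusted p = 5.71e-05). Rspo1 stood at 62.4, 122, 86.3 and 81.1 CPM (−0.36, edgeR adjusted p = 0.654). Its difference was −0.78 without CO A and turned without CO B (0.20). Lgr6 stood at 192, 33.2, 82.3 and 61.7 CPM (−0.88, adjusted p = 0.566). Without CO A it was higher in DES (0.87) and without CO B lower (−1.65), so that each CO section fixed its direction. Muscle markers summed to 57881 and 57674 CPM in the CO and 28229 and 25965 CPM in the DES muscle-rich spots, so these regions were not equal in muscle content.

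Stromal spots, the 1 cluster of each section that the study calls stroma, gave 0 calls by edgeR among 3 members tested, where it called 1.47% of genes, and 0 by DESeq2 among 6, where it called 1.48%. At an unadjusted p under 0.05 there was 1 member, where 13.4% of genes passed. Lgr4 stood at 10.7 and 9.76 CPM in CO and 38.4 and 26.0 CPM in DES (log2 difference 1.63, SE 0.47, unadjusted p = 0.00709, adjusted p = 0.147). Basal markers there summed to 0 and 90.0 CPM in CO and 7058 and 1998 CPM in DES. Rspo1 was close to even, at 68.0, 57.4, 73.9 and 66.4 CPM (0.12, SE 0.32, adjusted p = 0.936). Lgr6 stood at 48.3, 4.34, 29.5 and 54.8 CPM (0.69, edgeR adjusted p = 0.826). Its difference was 3.04 without CO A and turned without CO B (−0.35). Muscle markers in the stromal spots summed to 1366 and 1088 CPM in CO and 4698 and 12537 CPM in DES, and their part in the Lgr6 levels was not tested. Without the spots shared with the muscle-rich region, Lgr6 differed by 0.57 (adjusted p = 0.918) and Rspo1 by 0.036, and Lgr4 was too low to test.

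Within a section, 5 of the 6 members tested differed between muscle-rich and epithelium-rich spots, as did 52% of all genes in CO and 37.8% in DES. In CO sections 3 of 6 members tested were higher in muscle-rich than in epithelium-rich spots and 2 were lower, where 25.6% of 13010 genes were called higher and 26.4% lower. Rspo3 was 138-fold higher (log2 7.11, SE 0.42, adjusted p = 5.09e-07), Lgr6 33.9-fold (5.08, SE 0.38, adjusted p = 2.5e-06) and Rspo1 10.9-fold (3.45, SE 0.23, adjusted p = 1.27e-06). Lgr4 was lower by −0.95 on the log2 scale (SE 0.24, adjusted p = 0.00768) and Rnf43 by −1.89 (SE 0.41, adjusted p = 0.0032). DESeq2 did not call the fall of Lgr4 (adjusted p = 0.0702) or Rnf43 (adjusted p = 0.0535), and the Lgr4 fall was lost with the outer 15% of spots (−0.83, adjusted p = 0.0530). The Lgr6 contrast was 7.12 without CO A, where CO B holds 1 UMI in epithelium-rich spots, and 4.75 without CO B. Mesothelial markers summed to 83.9 and 95.3 CPM in CO muscle-rich spots and 14.9 and 17.8 CPM in CO epithelium-rich spots. In DES they summed to 127 and 134 CPM against 24.4 and 27.9 CPM. Their part in the Rspo1 and Rspo3 contrasts was not tested.

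In DES sections the same 5 members were called in the same directions, where 18.2% of genes were called higher and 19.5% lower. Rspo3 was 81.4-fold higher in muscle-rich spots (log2 6.35, SE 0.51, adjusted p = 8.75e-06), Rspo1 10.9-fold (3.45, SE 0.25, adjusted p = 5.82e-06) and Lgr6 3.86-fold (1.95, SE 0.32, adjusted p = 8.92e-04). Lgr4 was lower by −1.60 (SE 0.24, adjusted p = 5.98e-04) and Rnf43 by −3.12 (SE 0.62, adjusted p = 0.00286), the latter lost without DES A (−2.30, adjusted p = 0.108) and −3.99 without DES B. Epithelium-rich spots held 0 Rspo3 UMIs in DES A and 4 in DES B, so the Rspo3 fold is loose. Its fitted log2 value was 5.44 without DES A and 10.01 without DES B, the latter against 0 UMIs and no measure of size. The Lgr6 contrast was 2.55 without DES A and 1.52 without DES B, both called. Znrf3 was not called in either condition (0.54 in CO, adjusted p = 0.284, and 0.69 in DES, adjusted p = 0.204).

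The contrast itself differed between conditions for 1 of the 6 members, Lgr6. Its muscle over epithelium difference was smaller in DES than in CO by 3.14 on the log2 scale, given as −3.14 for DES minus CO (SE 0.50, edgeR adjusted p = 0.00817), where 2.98% of genes were called in this direction and 3.12% in the other. The difference combined more Lgr6 in epithelium-rich DES spots with levels in muscle-rich DES spots that lay between those of both CO sections, as given above. Muscle markers in muscle-rich spots were lower in DES, and basal markers in epithelium-rich spots were higher (9835 and 5192 CPM against 4.72 and 144 CPM in CO), while Lgr6 was higher in basal than in other DES epithelial cells. Their part in the difference was not tested. Without DES A it was −2.58 and did not pass, and without CO A it was −5.12, so that its size rests on single sections. Without the spots shared with the stromal cluster it was −3.02 (adjusted p = 0.0147). Rspo1 differed by 0.0019 (SE 0.35), Lgr4 by −0.64 (SE 0.35, adjusted p = 0.347) and Rnf43 by −1.23 (SE 0.86, adjusted p = 0.468).

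**Figure D4:**
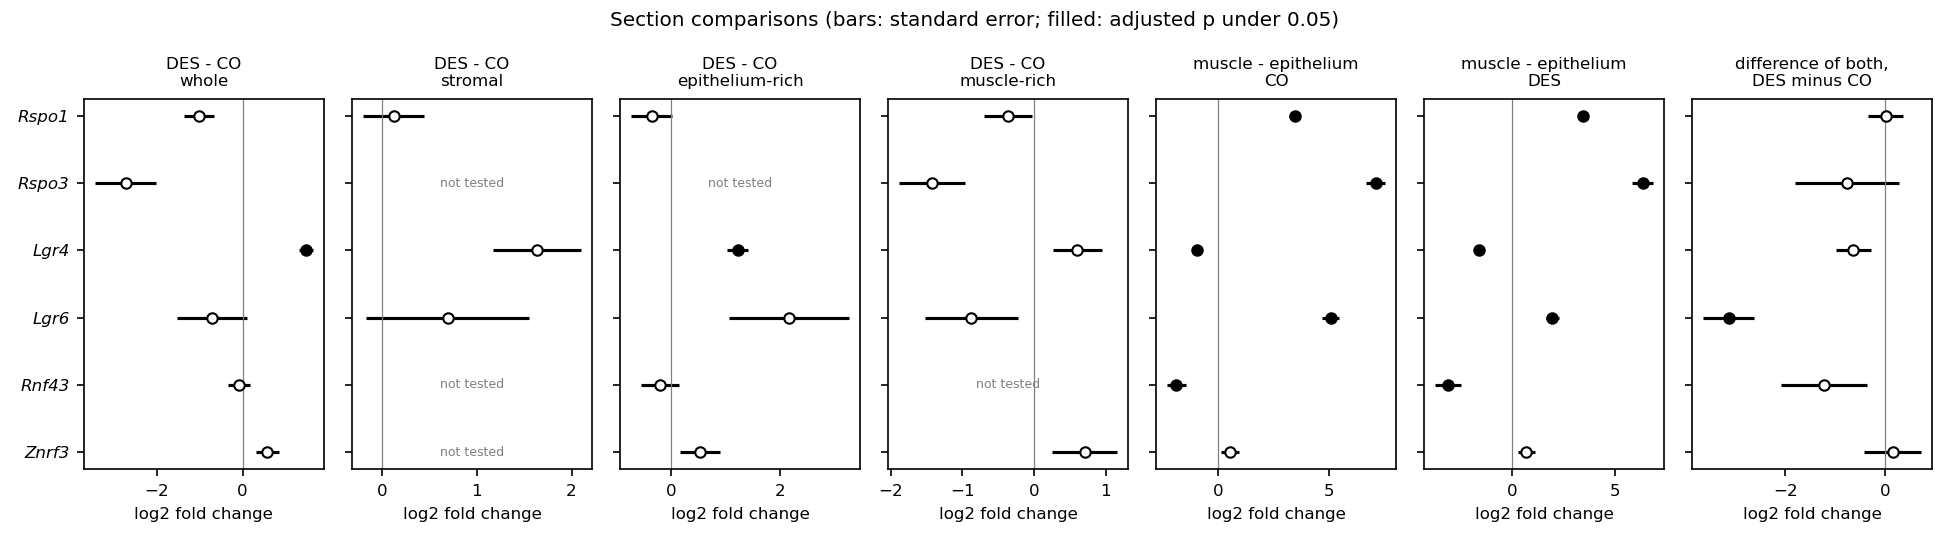
Log2 differences with standard errors of 6 members in the section comparisons; filled points passed an adjusted p of 0.05, open points did not, and members removed by the filter on low counts are marked as not tested. Lgr4 passes for DES against CO in whole sections (1.49) and in epithelium-rich spots (1.22), and Lgr6 in the difference of the region contrast (−3.14).

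The 10 spot clusters of each section gave the levels by place. Lgr4 was highest in the DES clusters richest in basal markers, at 94.2 CPM in DES A cluster 1 (84.2 to 105), 94.0 CPM in DES A cluster 5, 90.6 CPM in DES A cluster 8 and 91.8 CPM in DES B cluster 7 (77.0 to 109), where basal markers summed to 8989 to 15026 CPM. CO B cluster 10, of 17 spots with basal markers at 6025 CPM, held Lgr4 at 30.5 CPM on 6 UMIs (11.2 to 66.4). Rnf43 reached 27.03 CPM in CO A cluster 5, which the study calls gland, against 12.6 CPM in the next cluster of that section. Lgr6 reached 206 CPM in CO A cluster 4 and at most 57.1 CPM in CO B, and Rspo3 reached 218 CPM in CO B cluster 1 and at most 65.5 CPM in CO A. Rspo1 was highest in DES B cluster 9, at 258 CPM, on 25 UMIs, where mesothelial markers summed to 361 CPM and stromal markers to 7733 CPM. Some clusters were small, and their levels rest on few UMIs.

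**Figure D5:**
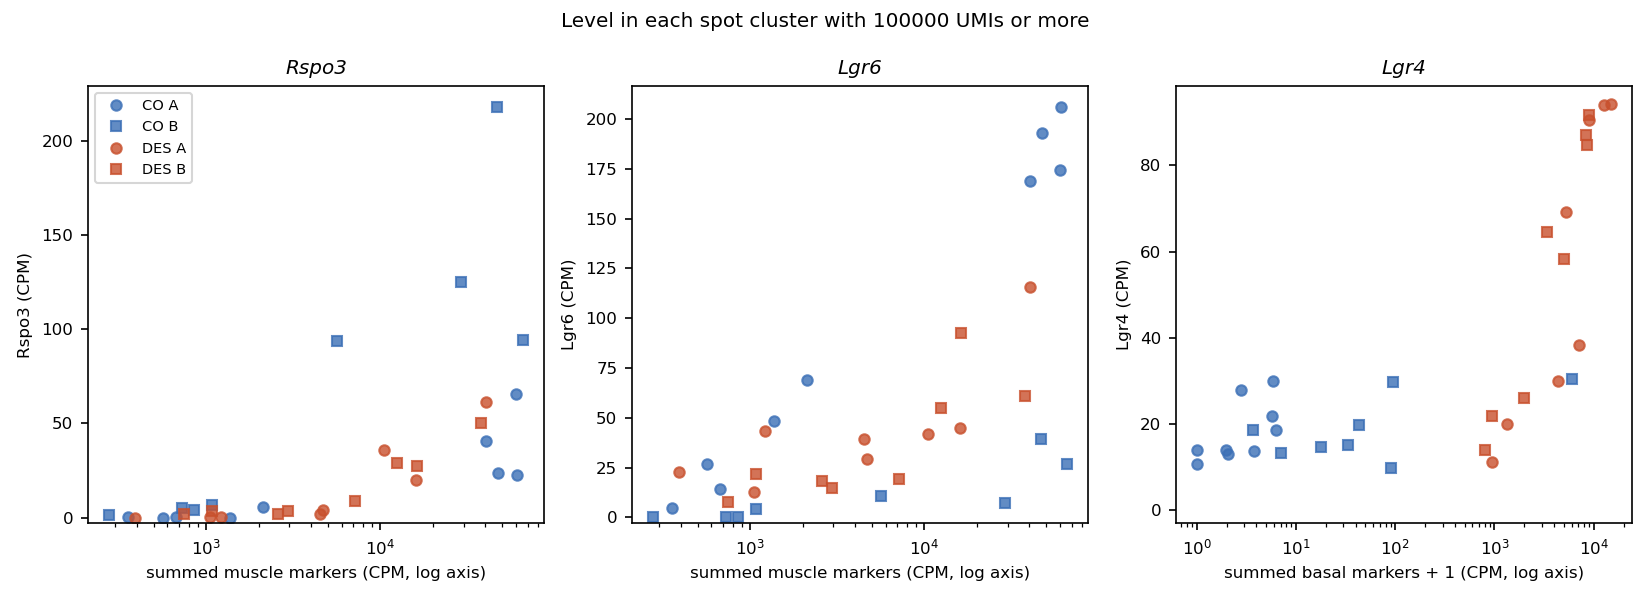
Levels of Rspo3 and Lgr6 against summed muscle markers and of Lgr4 against summed basal markers, all in CPM with the marker axes on a log scale, for each spot cluster with 100000 UMIs or more (blue CO, orange DES, circles A, squares B). Lgr4 reaches 90.6 to 94.2 CPM in DES A clusters 1, 5 and 8, and CO B cluster 10, with basal markers at 6025 CPM, lies at 30.5 CPM.

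Of the other Wnt genes, 49 of the 57 were tested in whole sections. In DES 5 were higher (10.2%) and 1 lower (2.04%), where 2.67% of all genes were higher and 2.63% lower, with a median log2 difference of 0.34 against −0.01 over all genes. Wnt4, a ligand that acts in gland formation and stroma, stood at 28.9 and 19.7 CPM in CO and 109 and 105 CPM in DES (3.81-fold, log2 1.93, SE 0.25, edgeR adjusted p = 0.0284). Wnt10a gave 0 and 6 UMIs in CO and 290 and 196 UMIs in DES (edgeR adjusted p = 0.0303). Wnt3a gave 0 and 0 UMIs in CO and 24 and 20 in DES (edgeR adjusted p = 0.0443). Against a floor of 3 UMIs over both CO sections, Wnt3a was 18.2-fold higher. In DES single cells Wnt10a was at 17.0 CPM in basal against 0.192 CPM in non-basal epithelium. Fzd5 was lower (−1.43, SE 0.23, adjusted p = 0.0401), a call lost without TMM factors (−1.22, adjusted p = 0.0591). Each of the calls of Wnt4, Wnt10a, Wnt3a and Fzd5 was lost when either DES section was left out. Of the known Wnt target genes, 0 of 10 tested in whole sections were called. In epithelium-rich spots 0 of 9 were called, and in stromal spots 0 of 6. In muscle-rich spots 1 of 6 was called higher (16.7%, where 2.24% of all genes were). The median log2 difference of the targets was 0.32 in whole sections and 0.74 in epithelium-rich spots.

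Within regions Wnt4 and Wnt10a recurred. Wnt4 rose in stromal spots (2.02, SE 0.36, adjusted p = 0.0378), the 1 call among 28 tested (3.57%, where 0.796% of all genes were called higher), in epithelium-rich spots (1.53, SE 0.27, adjusted p = 0.0483) and in muscle-rich spots (2.89, SE 0.38, adjusted p = 0.00816). Wnt10a rose in epithelium-rich spots (6.23, SE 0.89, edgeR adjusted p = 0.0303). With Wnt4 this made 2 calls among 41 tested there (4.88%, where 2.72% of all genes were called higher). Wnt10a also rose in muscle-rich spots, where 4 of 37 rose (10.8%, against 2.24% of all genes). In those spots it was 12.1-fold higher against a floor of 3 UMIs over both CO sections. Wnt7b, an epithelial ligand, rose there too (2.81, SE 0.41, adjusted p = 0.0117). In muscle-rich spots epithelial markers summed to 154 and 103 CPM in CO against 554 and 639 CPM in DES, and basal markers to 1.91 and 7.66 against 2480 and 1596 CPM, and their part in these calls was not tested. Wnt4 lost its stromal call without CO B (1.69, adjusted p = 0.0737), DES A (1.97, adjusted p = 0.191) or DES B (2.05, adjusted p = 0.123). Its epithelium-rich call was lost without DES A (1.60, adjusted p = 0.185) or DES B (1.48, adjusted p = 0.174), and its muscle-rich call with the outer 15% of spots (2.98, adjusted p = 0.0711). Wnt10a lost its epithelium-rich call without DES A (5.65, adjusted p = 0.0991), and Wnt7b its muscle-rich call without DES B (2.55, adjusted p = 0.0894). Between regions the shares called were mostly near those of all genes. In CO, 9 of 43 (20.9%, against 25.6% of all genes) were higher in muscle-rich spots, led by Nkd1 (4.41), a feedback inhibitor of Wnt signaling, Fzd7 (3.15) and Ccnd1 (2.38), and 13 (30.2%, against 26.4%) were lower, led by Wnt7a (−3.69), Fzd10 (−3.51) and Wnt7b (−3.46). In DES 6 (14%, against 18.2%) were higher, led by Nkd1 (3.61), Fzd7 (1.96) and Fzd2 (1.74), and 11 (25.6%, against 19.5%) lower, led by Fzd10 (−3.24), Wnt7a (−3.11) and En2 (−2.93). Fzd7 was lost without DES A (1.84, adjusted p = 0.0533), and En2 by DESeq2 (−3.19, adjusted p = 0.178), without DES A (−2.58, adjusted p = 0.107) and without DES B (−6.43, adjusted p = 0.286).

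The genes with the most similar patterns were listed by Pearson correlation of log2 levels, as a description. Over 15 groups of cell type and library, they were Hoxc6 for Rspo1 (r = 0.979), Bloc1s1 for Rspo3 (0.963), Celsr2 for Lgr4 (0.915), Slc37a1 for Lgr5 (0.826), Zfp651 for Lgr6 (0.931), Ildr1 for Rnf43 (0.948) and Cacybp for Znrf3 (0.856). Over the 40 spot clusters, after the mean of each section was removed, they were Pmp22 for Rspo1 (0.952), P2rx6 for Rspo3 (0.900), Cx3cl1 for Lgr4 (0.900), Trpv2 for Lgr6 (0.914), Ppp1r36 for Rnf43 (0.854) and Taf12 for Znrf3 (0.889). The points share libraries, depth and spots, and the low members rest on few UMIs in many of them. Tuba4a was among the 3 genes most like Rnf43 over cell types (0.924) and among the 3 most like Lgr4 over spot clusters (0.899).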

How the data were processed

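Single-cell libraries were made on the 10x Genomics platform and sections with Visium. The submitters' processing notes name bcl2fastq 2.20.0.422, Cell Ranger 3.0.1, Space Ranger 1.2.2 and mm10, and the authors used scran to remove doublets, DropletUtils to look for swapped barcodes and Seurat to analyse cells and spots. The deposited tables hold raw UMI counts per gene and cell or spot, not normalized. The cell and spot tables deposited with them give labels.

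The members and gene lists were chosen with earlier results of these data known. Counts were summed per group of cells (50 cells or more) or per section and region and given per 1000000 UMIs (CPM). CO epithelial cluster 14, with 28 cells, was an exception and was given levels among the authors' clusters. Single-cell levels have exact Poisson 95% intervals, ratios exact conditional binomial intervals and shares Clopper-Pearson intervals after thinning to 3000 UMIs, with shallower cells left out. Sections were tested with edgeR 4.0.16 (R 4.3.3; quasi-likelihood, TMM, filterByExpr, Benjamini-Hochberg over all genes, threshold 0.05). The section was the replicate, and region contrasts used the section as a block in one fit of 8 region sums. DESeq2 1.42.0, its size factors, library size without TMM factors, regions without shared spots, no filter, left-out sections, section letter as a block, 15% regions, quality filters and equal weight per cell were alternatives. The fit was tested on simulated data. Named genes were all 9 members, up to 3 rising and 3 falling Wnt genes in each section comparison, and the 3 genes most like each member, of which the first is given. The Wnt genes named in single cells and Tuba4a were chosen after their values were seen. Gene positions are from GENCODE on GRCm38 and promoters from RefSeq on GRCm38.p6.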

Additional observations from a re-analysis of the deposited data

Results flagged for a closer look

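The muscle over epithelium contrast differed between DES and CO sections, by a test of the difference itself, for Lgr6, 1 of 6 members tested, and 3 Wnt ligands, among 43 other Wnt genes tested (6.98%). Of all genes, 2.98% were called in the direction of Lgr6 and 3.12% in that of the ligands. Lgr6 differed by −3.14 on the log2 scale (SE 0.50, edgeR adjusted p = 0.00817). Wnt5a differed by 1.76 (SE 0.33, adjusted p = 0.0137), Wnt7b by 1.69 (SE 0.39, adjusted p = 0.0332) and Wnt4 by 1.34 (SE 0.33, adjusted p = 0.0391), each toward muscle-rich spots in DES. All 4 lost the call without DES A (Lgr6 at −2.58, and at −5.12 without CO A), and the 3 ligands also without DES B. Without the muscle-rich spots that also belonged to the stromal cluster (44 in DES A, 94 in DES B and 0 in the CO sections), Lgr6 kept the call (−3.02, adjusted p = 0.0147), whereas Wnt5a (1.07, adjusted p = 0.143), Wnt7b (1.55, adjusted p = 0.0575) and Wnt4 (0.94, adjusted p = 0.206) lost it. Between the conditions muscle markers in muscle-rich spots (57881 and 57674 CPM in CO, 28229 and 25965 CPM in DES), basal markers in muscle-rich spots (1.91 and 7.66 against 2480 and 1596 CPM) and basal markers in epithelium-rich spots (4.72 and 144 against 9835 and 5192 CPM) moved as well, and their part was not tested.

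Cells without a cell type, which entered no comparison, held 3 of the 9 members at higher and 4 at lower levels in the DES than in the CO library, with intervals that did not overlap. Of 13758 genes at 1 CPM or more in either library, 38.6% were higher and 30.7% lower by this measure. Of the 7 members at that level, 3 were higher and 3 lower (42.9% each). Lgr4 was at 26.9 CPM in 6611 DES cells and 14.4 CPM in 20134 CO cells, Rnf43 at 11.1 and 4.14 CPM, and Znrf3 at 8.22 and 4.67 CPM. The 4 members that were lower in DES were Lgr6 (6.02 against 9.46 CPM), Rspo1, Rspo3 and Rspo4. Among annotated cells of all types Lgr4, Rnf43 and Znrf3 stood at 29.0 and 17.5 CPM, 11.9 and 4.72 CPM, and 11.02 and 6.38 CPM. The cell types that make up these cells were not tested.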

How the results depend on the processing

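Each condition had 1 single-cell library and 2 sections, which bounds every comparison. Leaving out 1 section at a time moved the number of genes called between 3 and 2819 in whole sections (747 with all), 40 and 357 in stromal spots (131), 127 and 2045 in epithelium-rich spots (546), 111 and 1959 in muscle-rich spots (401), 2291 and 6213 between regions in DES (4914), and 111 and 1799 for the difference of that contrast (794). DESeq2 called 1761 genes in whole sections, 1173 in epithelium-rich spots, 3180 between regions in DES and 480 for the difference. Testing all genes with 1 count or more gave 714 in stromal spots, 1189 in muscle-rich spots and 1252 for the difference, and the outer 15% of spots gave 114 in muscle-rich spots and 325 for the difference. Of 367 values of members under alternatives, 327 kept their direction and side of the threshold, 11 lost a call, 13 gained one and 16 turned. For 242 values of other Wnt genes, 205 kept both and 37 lost a call. The cause of these changes was not tested.

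With 1 section left out, the log2 difference ran from −1.49 to 1.09 for Lgr6 and −0.33 to 0.11 for Rnf43 in whole sections, and −0.35 to 3.04 for Lgr6 in stromal spots. It ran from −0.65 to 0.13 for Rnf43 in epithelium-rich spots, and −0.78 to 0.20 for Rspo1 and −1.65 to 0.87 for Lgr6 in muscle-rich spots. For the difference of the region contrast it ran from −0.26 to 0.40 for Rspo1 and −1.64 to 2.89 for Rspo3. The outer 15% of spots turned Lgr4 in muscle-rich spots (−0.0054) and the contrast differences of Rspo3 (0.60) and Znrf3 (−0.058), and testing all genes turned that of Rspo1 (−0.0022). Library size without TMM factors, added after seeing the data, turned Rnf43 in whole sections (0.13) and epithelium-rich spots (0.064). Leaving out spots that were both muscle-rich and stromal, also added then, gave 232 genes called in muscle-rich spots and turned the contrast difference of Znrf3 (−0.13).

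In non-basal epithelium, equal weight per cell gave DES to CO ratios of 0.654 for Rspo1, 0.726 for Lgr5, 1.05 for Lgr6 and 1.63 for Znrf3, and 1.29 for Rspo1 in mesothelial cells. With basal cells included the ratios were 1.32 for Lgr4 and 1.61 for Lgr6. Of 114 shares of cells under other thinning, 93 moved. At a floor of 5 CPM in place of 1 CPM, 912 of 10126 genes in place of 1698 of 12747 were 2-fold or more higher in DES non-basal epithelium.

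Sections that share a letter did not deviate together (correlations of −0.0254 in whole sections, 0.0898 in stromal, 0.0401 in epithelium-rich and 0.00971 in muscle-rich spots), so the letter only names them. With the letter as a replicate block, 527 genes were called in whole sections, 453 in stromal, 456 in epithelium-rich and 1023 in muscle-rich spots. Under this block Lgr4 in epithelium-rich spots had an adjusted p of 0.0624 and Rspo3 in muscle-rich spots one of 0.00255 by edgeR.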

Other observations

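Cells without a cell type also held the ligands Rspo1 and Rspo3. Rspo1 was at 184.7 CPM in the CO and 140.3 CPM in the DES cells without a cell type, and Rspo3 at 23.0 and 20.1 CPM. For each 100 UMIs of Rspo1 these cells held 12.4 UMIs of Rspo3 in CO and 14.3 in DES, against 12.0 and 15.6 in mesothelial cells. Rspo4 gave 37 UMIs in the CO cells without a cell type and 0 in the DES ones.

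The 22 CO cells that the authors label Stmn1-hi, too few for a level of their own in the comparisons, held 148 UMIs of Rspo1 and 23 UMIs of Rspo3. The CO cells that the authors label Ctla2a held Rspo1 at 36.2 CPM (29.5 to 44.0) and Rspo3 at 12.9 CPM (9.04 to 17.9), 35.6 UMIs of Rspo3 for each 100 UMIs of Rspo1.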
